A study of Caenorhabditis elegans with 2 samples.

Results

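The genes described here are the cell cycle and DNA replication genes of *Caenorhabditis elegans*, and the question is which of them carried peaks of the homeobox protein CEH-82 near their starts. They were taken by name alone, as protein-coding genes whose names begin with cdk-, cdc-, cya-, cyb-, cyd-, cye-, cyh-, mcm-, orc-, efl-, dpl-, cki-, plk-, air- or pcn-, with the cdc-48. genes left out. This gave 58 of the 19973 protein-coding genes on the 6 nuclear chromosomes. Binding was mapped by chromatin immunoprecipitation with sequencing (ChIP-seq) in whole second-stage (L2) larvae of strain OP212, of mixed sex and unknown age, in 1 group of 2 biological replicates. OP212 carries the unc-119(ed3) mutation on chromosome III and ddEx58, a name that by worm convention marks a transgene array kept outside the chromosomes although the labels also speak of an insertion, and the assayed protein is CEH-82 tagged with enhanced green fluorescent protein (eGFP). Such arrays can be lost from some cells and can differ in copy number from the endogenous gene, and a peak from whole animals can come from any tissue. The labels name ceh-82 as the antibody target. The series has no second factor, stage or strain here to set it against, so every statement below is about positions and ranks within 1 condition.

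Progress through the division cycle is driven by cyclin-dependent kinases (CDKs), which act with cyclins, are held back by CDK inhibitors and are switched on by CDC-25 phosphatases. Before DNA is copied, the origin recognition complex and CDC-6 load the MCM helicase on DNA, and PCNA later clamps the polymerase to its template. E2F factors with their DP partner switch many of these genes on or off. In the worm EFL-1 and DPL-1 work with the retinoblastoma-like protein LIN-35 and the LIN-9, LIN-37, LIN-52, LIN-53 and LIN-54 proteins in the DREAM complex. Some genes with cdk- and cdc- names act elsewhere, such as cdk-5 in neurons and cdk-7, cdk-8, cdk-9 and cdk-12 in transcription.

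Of the peaks that passed the authors' reproducibility threshold, 7 had their summit from 1000 bp upstream to 200 bp downstream of the start of at least 1 of these genes. The sequence around 5 of them, the summit with 100 bp on each side, is shown. Holding words of the E2F site was not the rule for showing them, since the windows of cdk-5 and cdk-11.2 hold none. Such words are in 3 of the 5 shown and in 3 of all 7 peaks, and are taken up again below. All 5 sequences are from the reference genome WBcel235 (ce11), 5′ to 3′. The windows are chrV:16965748-16965948 on the minus strand for efl-1, chrIII:13466357-13466557 on the minus strand for cdk-5, chrIV:4049592-4049792 on the minus strand for pcn-1, chrIV:10734601-10734801 on the plus strand for the peak between cyb-1 and orc-5, and chrX:10419839-10420039 on the minus strand for cdk-11.2. Each strand is that of the gene, or of cyb-1 for the shared peak. Capitals mark the E2F words TTCCCGC in efl-1 and GCGCGAA in pcn-1 and cyb-1/orc-5, and the word AATGCGCAAA in cdk-5 and pcn-1. The cdk-5 window also overlaps the gene kel-3, and the window of cdk-11.2 holds no word of either kind.
efl-1: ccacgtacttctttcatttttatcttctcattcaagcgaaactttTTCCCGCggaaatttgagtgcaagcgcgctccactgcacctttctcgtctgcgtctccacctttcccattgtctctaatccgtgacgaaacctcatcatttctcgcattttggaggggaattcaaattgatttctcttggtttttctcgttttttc
cdk-5: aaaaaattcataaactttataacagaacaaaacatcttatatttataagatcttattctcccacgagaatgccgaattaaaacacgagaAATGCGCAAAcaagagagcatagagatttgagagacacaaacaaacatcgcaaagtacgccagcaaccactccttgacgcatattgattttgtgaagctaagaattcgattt
pcn-1: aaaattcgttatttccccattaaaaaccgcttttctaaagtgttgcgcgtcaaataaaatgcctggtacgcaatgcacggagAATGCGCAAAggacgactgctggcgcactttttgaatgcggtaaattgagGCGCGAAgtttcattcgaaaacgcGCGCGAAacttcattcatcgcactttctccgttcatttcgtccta
cyb-1/orc-5: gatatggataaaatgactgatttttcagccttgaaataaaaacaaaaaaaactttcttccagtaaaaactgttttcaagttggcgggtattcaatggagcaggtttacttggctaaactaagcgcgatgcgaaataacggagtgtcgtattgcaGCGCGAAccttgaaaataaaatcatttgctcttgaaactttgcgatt
cdk-11.2: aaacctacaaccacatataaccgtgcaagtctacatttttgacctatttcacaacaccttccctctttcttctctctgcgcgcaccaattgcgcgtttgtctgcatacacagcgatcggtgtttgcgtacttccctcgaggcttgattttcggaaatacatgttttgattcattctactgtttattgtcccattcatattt

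Reproducible CEH-82 summits lay at the starts of 8 of the 58 genes (13.8%), against 507 of all 19973 protein-coding genes (2.54%). The 8 were the E2F gene efl-1, the kinase genes cdk-7, cdk-5 and cdk-11.2, the replication genes pcn-1, cdc-6 and orc-5, and the B cyclin gene cyb-1. Their WormBase identifiers are WBGene00001161 (efl-1), WBGene00000408 (cdk-7), WBGene00000407 (cdk-5), WBGene00013917 (cdk-11.2), WBGene00003955 (pcn-1), WBGene00000382 (cdc-6), WBGene00013857 (orc-5) and WBGene00000865 (cyb-1). A reproducible summit here is one of the 537 regions that the authors kept by their irreproducible discovery rate (IDR) threshold. These were the 537 strongest of the 9070 regions called on both replicates together, the pooled list. The word names membership of the thresholded list and does not mean that a region was strong in each replicate. Of the 537, 492 had a summit within 100 bp in the replicate 1 list and 531 in the replicate 2 list. In the pooled list 18 of the 58 genes had a summit (31.0%), against 15.5% of all protein-coding genes. Of the genes with any pooled summit, 44.4% of the 18 and 16.4% of the 3092 had a reproducible one. In the stronger 50% of the reproducible list only efl-1 and cdk-7 were left, 2 genes (3.45%, against 1.36% of all protein-coding genes). Without replicate 1, taking the strongest 537 regions of replicate 2 in place of the reproducible list, 5 genes were left (8.62%, against 2.40%), and without replicate 2 also 5 (8.62%, against 2.00%). With the window narrowed to 250 bp upstream and 50 bp downstream, pooled summits were at 11 of the 58 genes. The share of all protein-coding genes with a pooled summit was not computed for that window. These are counts with no test.

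A further 23 genes had a summit in the list of 1 or both replicates only, and 17 had none in any list. The replicate lists hold 30000 regions each, background included by construction. Any summit in the replicate 1 list was found for 30 of the 58 genes (51.7%), against 37.2% of all protein-coding genes, and in the replicate 2 list for 32 (55.2%), against 36.9%. A summit there alone is therefore common to many genes and is not called binding below. Signal values are the authors' own per region, without a stated scale, and are used to rank regions within a list. No list holds read numbers, which leaves the sequencing depth unknown, and the thresholded and pooled values come from both replicates together and have no error.

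**Figure D1:**
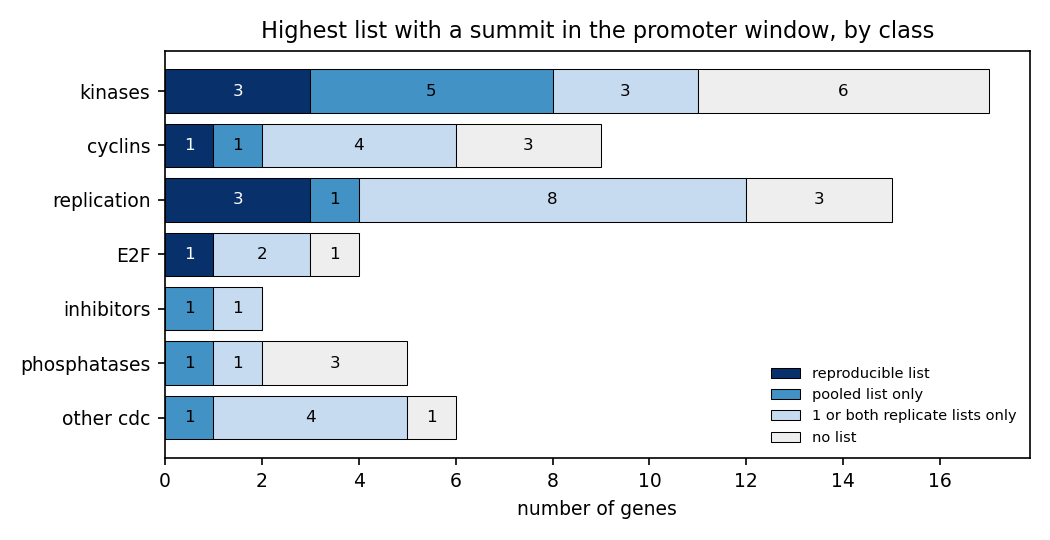
Number of genes in each class by the highest-ranking kind of list with a summit in the promoter window; the 4 shades stand for the reproducible list, the pooled list only, 1 or both replicate lists only, and no list. Kinases and replication genes have 3 genes each in the reproducible list, cyclins and E2F genes 1 each, and the other 3 classes none.

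Among the E2F genes, efl-1 alone of 4 had a pooled or reproducible summit. It had the highest signal of all 58 genes, 36.3 (rank 151 of the 537), at chrV:16965716-16965979, with the summit at -173 bp from the start (negative is upstream). Its signal was 16.2 in replicate 1 (rank 91 of 30000) and 20.75 in replicate 2 (rank 238), so it lay among the 537 strongest regions of both. The other genes of the class had no pooled summit. The DP partner dpl-1 had a summit in the replicate 2 list only, at rank 17168 with a signal of 3.89, and efl-3 in the replicate 1 list only, at rank 6371 with 4.53. No list had a summit at efl-2.

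Of the 15 replication genes, 3 had a reproducible summit: pcn-1, cdc-6 and orc-5. The PCNA gene pcn-1 had a signal of 25.25 (rank 360) at chrIV:4049560-4049823, at -244 bp from its start. In replicate 1 this region had a signal of 2.99 and rank 19089, and in replicate 2 a signal of 24.2 and rank 163. The replicates were thus far apart at pcn-1, strong in replicate 2 and within the bulk of the list in replicate 1.

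The licensing gene cdc-6 showed the same order of the replicates. Its signal was 22.7 (rank 442) at chrI:4270431-4270694, at -276 bp from the start, with 5.04 in replicate 1 (rank 4319) and 18.1 in replicate 2 (rank 331). That summit was nearer to the divergent gene acin-1, named after a splicing-associated factor, at -103 bp from its start. The gene orc-5, for a subunit of the origin recognition complex, had a summit at -113 bp from its start, at chrIV:10734569-10734832 with a signal of 22.4 (rank 460). This is the peak that it shares with cyb-1. Here replicate 1 was the stronger, with 11.85 (rank 186), and replicate 2 had 9.93 (rank 1159).

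The 6 genes for the MCM2 to MCM7 helicase subunits had no reproducible summit. Of these mcm-4 came nearest, with a pooled signal of 17.9 at rank 714, at -147 bp from its start, where the lowest signal in the reproducible list was 21.1. Its values were 2.68 in replicate 1 (rank 22837) and 11.5 in replicate 2 (rank 853), again higher in replicate 2. In the replicate lists alone, mcm-2, mcm-3, mcm-6, mcm-7, mcm-10, mcm-3AP, orc-2 and orc-4 had summits, none ranking above 7182. The mcm-3AP gene is in the class by its name, which refers to a protein that binds MCM3. No list had a summit at mcm-5, orc-1 or orc-3.

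Of the 17 kinase genes, 3 had a reproducible summit, and none of these 3 is cdk-1, cdk-2 or cdk-4. The gene cdk-7, for the kinase that activates other CDKs and is also part of the transcription factor TFIIH, had a signal of 33.8 (rank 182) at chrI:2291127-2291390. Its summit lay at -54 bp from the start, the shortest distance of the 8 genes. It had 15.4 in replicate 1 (rank 102) and 17.3 in replicate 2 (rank 371), which puts it, like efl-1, among the 537 strongest of both.

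The neuronal kinase gene cdk-5 had a signal of 26.4 (rank 313) at chrIII:13466325-13466588, at -115 bp from its start, with 8.04 in replicate 1 (rank 626) and 14.9 in replicate 2 (rank 502). The replicates were close in rank there. The gene cdk-11.2, whose mammalian relatives act in transcription and splicing, had a signal of 21.6 (rank 504) at chrX:10419807-10420070, at -174 bp. This was the weakest of the 7 peaks, with 9.04 in replicate 1 (rank 398) and 7.81 in replicate 2 (rank 2174).

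The other kinase genes had no reproducible summit. Of cdk-1, cdk-2 and cdk-4, which act in mitosis, S phase and G1, none had a pooled summit, although cdk-1 had a replicate 2 summit at rank 4430 and cdk-4 one at rank 22770. Among the 5 Polo-like and Aurora kinase genes, plk-1, air-2 and air-1 had pooled summits with signals of 12.4, 8.64 and 7.60, at ranks 1605, 5236 and 8336. Pooled summits were also present at cdk-9, a kinase of RNA polymerase II, with 10.9 (rank 2315), and at cdc-7, the kinase that fires origins, also with 10.9 (rank 2324). Within 100 bp of these pooled summits, cdk-9 had 3.82 in replicate 1 and 7.81 in replicate 2, and cdc-7 had 4.29 in replicate 1 and 6.93 in replicate 2, so both were higher in rank in replicate 2. The summit of plk-1 was listed in replicate 2 alone (8.91, rank 1519) and that of air-2 in replicate 1 alone (4.95, rank 4696). That of air-1 had no match within 100 bp in either, while its window held a replicate 2 summit at rank 16148. The paralog of cdk-11.2, cdk-11.1, had no summit in any list, nor had cdk-2, cdk-8, cdk-14, plk-2 or plk-3, while cdk-12 was in the replicate 2 list only (rank 11112).

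Of the 9 cyclin genes only cyb-1 had a reproducible summit, and that summit was at -515 bp from its start, nearer to orc-5 than to cyb-1, so that windows of 500 bp or less and the nearest-start rule left no cyclin (0). The B cyclin gene cyb-3 had a pooled summit of 7.52 (rank 8632), listed at rank 4321 in replicate 2 and not within 100 bp in replicate 1. The gene for cyclin E, cye-1, which drives entry into S phase, had no pooled summit, yet its replicate 2 summit had a signal of 13.35 and rank 636, with none in replicate 1. It is singled out after its values were seen. No other replicate-only summit of the 58 genes ranked above 2990. Summits at cya-1, cyb-2.2 and cyh-1 were in replicate lists only, none above rank 16554, and cya-2, cyb-2.1 and the cyclin D gene cyd-1 had none.

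The remaining classes had no reproducible summit. Of the CDK inhibitor genes, cki-1 had a pooled summit of 8.05 (rank 6793), at -763 bp, found at rank 1037 in replicate 1 and absent within 100 bp in replicate 2, and cki-2 a replicate 1 summit at rank 18810. Of the 5 phosphatase genes, cdc-25.3 had a pooled signal of 8.11 (rank 6640), with no replicate summit within 100 bp. Elsewhere in its window were summits at rank 17017 in replicate 1 and at rank 1934 in replicate 2, with a signal of 8.13. The gene cdc-14 was in the replicate lists only, and cdc-25.1, cdc-25.2 and cdc-25.4 had no summit. Of the 6 other cdc- genes, cdc-42, for a GTPase of cell polarity, had a pooled signal of 9.55 (rank 3660), at -872 bp from its start, with 5.28 in replicate 1 (rank 3720) and 4.73 in replicate 2 (rank 10497). The genes cdc-37, cdc-50.B, cdc-5L and cdc-73 were in replicate lists only, and cdc-26, for a subunit of the anaphase-promoting complex, in none.

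The 7 reproducible peaks were all found in each replicate list within 100 bp, but the replicates ranked them differently. Among the 537 strongest regions of replicate 1 were summits at 5 of the 58 genes (8.62%, against 2.00% of all protein-coding genes), namely efl-1, cdk-7, cyb-1, orc-5 and cdk-11.2. Among those of replicate 2 were also 5 (8.62%, against 2.40%), namely efl-1, cdk-7, cdk-5, pcn-1 and cdc-6. Only efl-1 and cdk-7 were in both (3.45%, against 1.25%). Of the 7 peaks, 4 (57.1%) were among the 537 strongest regions of replicate 1, against 301 of all 537 reproducible peaks (56.1%). For replicate 2 these counts were 5 (71.4%) and 441 (82.1%). The median rank of the 7 peaks was 398 in replicate 1 and 371 in replicate 2. For all reproducible peaks it was 322 over the 492 found in replicate 1, and 277 over the 531 found in replicate 2.

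**Figure D2:**
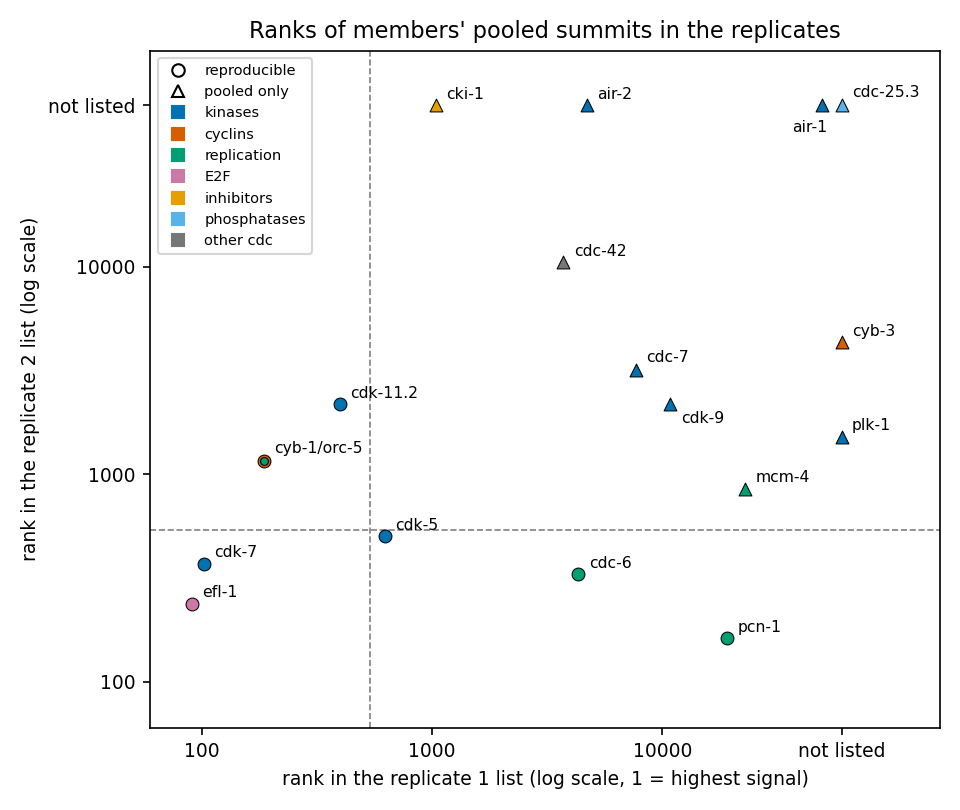
Rank of the region within 100 bp of each gene's strongest pooled summit in the replicate 1 list (x axis) and the replicate 2 list (y axis), both log scales, for the 18 genes with a pooled summit; circles are reproducible, triangles pooled only, colours are classes and dashed lines mark rank 537. The points of efl-1 and cdk-7 lie inside both lines. Those of cdk-5, pcn-1 and cdc-6 are inside for replicate 2 alone, and those of cdk-11.2 and of cyb-1 and orc-5, which share a point, for replicate 1 alone. No region of either replicate lies within 100 bp of the pooled summits of air-1 and cdc-25.3.

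At all 8 genes the reproducible summit lay upstream, at a median of -174 bp from the start and between -515 and -54 bp. The summit that cyb-1 and orc-5 share is counted for each of them. Over all 507 protein-coding genes with a reproducible summit the median was -249 bp, and 490 were upstream. The replicate summits lay 4 to 26 bp from the reproducible one in replicate 1 and 0 to 53 bp in replicate 2, the largest offset being at cdk-5. Of the 7 peaks, 3 had more than 1 coding gene in range (42.9%), against 152 of the 347 reproducible peaks with any coding gene in range (43.8%). These were the peak between cyb-1 and orc-5, that between cdc-6 and acin-1, and that at efl-1, where the summit is also at -966 bp from the F-box gene fbxa-90 on the other strand. ChIP-seq does not tell which of the genes in range a region acts on. The peaks of cdk-7, cdk-5, pcn-1 and cdk-11.2 had no other coding gene start in range.

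**Figure D3:**
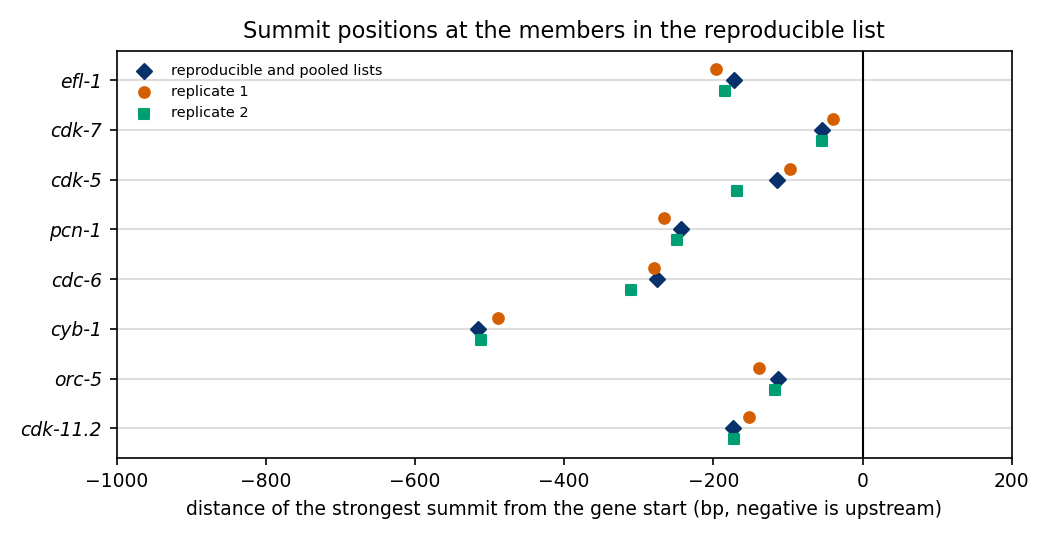
Distance in bp from the gene start to the strongest summit in the promoter window, with negative values upstream, for the 8 genes with a reproducible summit, from the highest signal at the top; diamonds are the reproducible and pooled lists, circles replicate 1 and squares replicate 2. All plotted summits are upstream of the start, and those of the reproducible list lie between -515 bp at cyb-1 and -54 bp at cdk-7.

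The signal at these genes was moderate. Over the 18 genes with a pooled summit the median of the highest pooled signal was 15.1, ranging from 7.52 to 36.3, against a median of 10.2 and a range of 7.41 to 211 over all 3092 such genes. Over the 8 genes with a reproducible summit the median was 24.0, against 29.2 over all 507. None of the 8 came near the strongest promoters of the series, and only efl-1 and cdk-7 exceeded the median of the 537 regions, 28.2.

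**Figure D4:**
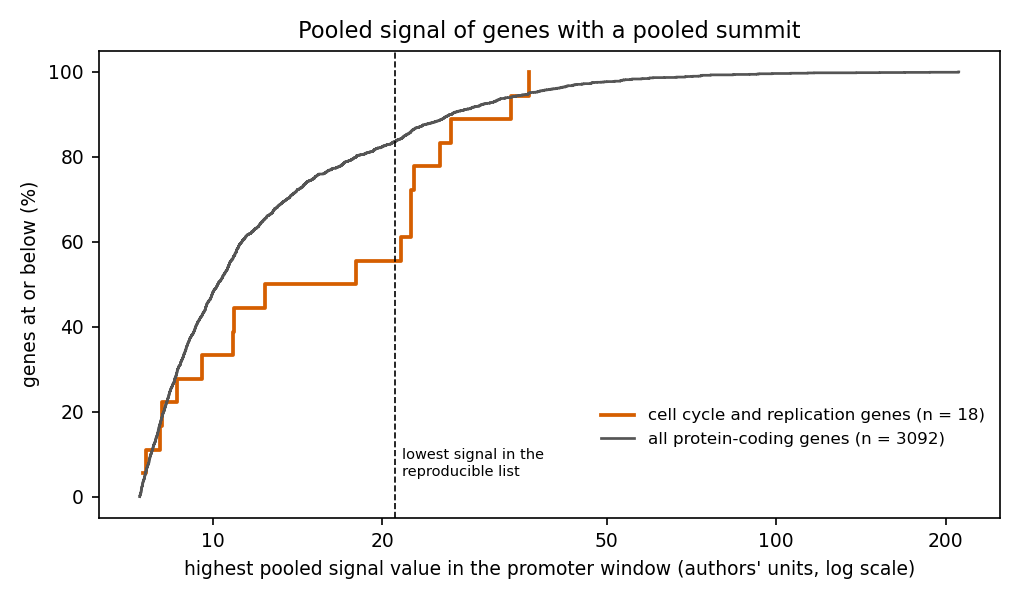
Cumulative percentage of genes (y axis) by the highest pooled signal value in the promoter window (x axis, the authors' units, log scale), for the 18 cell cycle and replication genes and for all 3092 protein-coding genes with a pooled summit; the dashed line is the lowest signal in the reproducible list, 21.1. The curve of the 18 genes lies to the right of the other at its middle, with a median of 15.1 against 10.2, and ends at 36.3.

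Words of the E2F site were present at 3 of the 7 peaks (42.9%), those of efl-1, pcn-1 and cyb-1/orc-5. The words searched on both strands of the same windows were TTCCCGC, which is the one at efl-1, another form with the letters TTGGCGC, then TTCGCGC, which is the one at pcn-1 and cyb-1/orc-5, and as the last form TTGCCGC. They were in 98 of all 537 reproducible peaks (18.2%), in 735 of the 8533 other pooled regions (8.61%) and in 1381 windows of the same length centred 200 bp upstream of all 19973 protein-coding gene starts (6.91%). In the windows printed above, TTCCCGC in efl-1 is centred at -52 bp from the summit, to the left of it. In pcn-1 the 2 copies of GCGCGAA, the reverse complement of TTCGCGC, are 35 and 59 bp to the right, and in cyb-1/orc-5 the copy is 57 bp to the right. The peaks of cdk-7, cdk-5, cdc-6 and cdk-11.2 had none. With 50 bp on each side of the summit in place of 100 bp, 1 of the 7 peaks held an E2F word, since only words within that distance count. With a T before each word, which makes 8 letters, 2 of the 7 peaks held a match, those of efl-1 and pcn-1. The shares over the other sets of windows were not computed for the narrower width or the 8-letter words.

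Over the whole promoter window from 1000 bp upstream to 200 bp downstream, an E2F word was present at 35 of the 58 genes (60.3%), against 6050 of all 19973 protein-coding genes (30.3%). It was about as frequent among the 8 genes with a reproducible summit, 5 (62.5%), as among the 50 without, 30. By class it was in 12 of the 15 replication genes, all 6 MCM2 to MCM7 subunit genes among them, in all 5 phosphatase genes, in 3 of the 4 E2F genes, in 9 of the 17 kinases and in 4 of the 9 cyclins. A word match is a description of the letters and does not show a bound site.

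Of the other words searched on both strands, only those of the CHR element were found. The repeat GAGAGAGA was in 14.2% of all reproducible peaks, the SP/KLF word GGGCGG in 59 of the 537 and the E-box CAGCTG in 7.82%, and none of the 7 peaks held any of them. The words TTTGAA or TTCGAA, the core of the cell cycle homology region (CHR) that the DREAM complex can bind, were in 3 of the 7 peaks, against 37.6% of all reproducible peaks, 49.3% of the other pooled regions and 56.4% of promoter windows. One of the 2 copies at pcn-1 is the TTCGAA that lies between its E2F words. GC content of the 7 windows had a median of 41.8% (30.8% at cdc-6 to 48.3% at cdk-7), against 46.3% for all reproducible peaks and 33.8% for promoter windows.

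A list of other genes of the cell cycle, which the names above do not take, was drawn up with earlier results of these data known. It held 76 genes, all of them in the annotation. Reproducible summits lay at 8 of these (10.5%) and pooled summits at 32 (42.1%), beside 2.54% and 15.5% of all protein-coding genes. The 8 fell to 3 of the 76 when each summit was given only to the nearest coding start, beside 1.71% of all protein-coding genes. With the window of 250 bp upstream and 50 bp downstream they fell to 4 of the 76, beside 1.25%. Among the 8 were 3 genes of the DREAM complex, lin-54 with a signal of 47.0 (rank 81, -345 bp), lin-9 with 39.5 (rank 125, -165 bp) and lin-53 with 28.7 (rank 261, -238 bp). In replicates 1 and 2 lin-9 ranked 45 and 296, lin-53 ranked 198 and 304, and lin-54 ranked 150 and 93, so all 3 were among the 537 strongest of both. A pooled summit of 17.1 (rank 792) was at lin-35, the Rb-like gene, in a region that the start of vps-51 shares, and no pooled summit was at dpl-1, lin-37 or lin-52. These genes were put together after their values were seen.

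The other 5 of the list were tim-1, a Timeless-family gene, with 42.55 (rank 104), rfc-4, for a subunit of the PCNA clamp loader, with 42.3 (rank 106), emb-1, for a subunit of the anaphase-promoting complex, with 37.7 (rank 139), the securin gene ify-1 with 36.5 (rank 147) and top-2, for topoisomerase II, with 26.8 (rank 299). The replicates differed most at ify-1, with a signal of 5.44 at rank 3271 in replicate 1 and 30.3 in replicate 2. All but lin-9 shared the summit with at least 1 other coding gene, lin-54 with rpl-12, rfc-4 with eef-1A.1, ify-1 with rpl-22, emb-1 with prp-19 and K10D2.5, top-2 with npp-3, lin-53 with nra-2 and tim-1 with Y75B8A.23. Of these neighbours rpl-12 and rpl-22 encode ribosomal proteins and eef-1A.1 a translation elongation factor. Which gene of each pair the peak belongs to was not tested.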

How the data were processed

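ChIP-seq peak lists of eGFP-tagged CEH-82 in 2 replicates of L2 larvae were used. Per the labels, the libraries had fragments of 150 to 350 bp. Per the names of the deposited files, peaks with background were listed for each replicate and for both together as input for the IDR step, and a further list holds the thresholded regions. For the aligner, the caller and the threshold, no name or value could be read from the labels or lists. The signal value is a score deposited by the authors with no stated scale, and the significance is the −log10 of a q-value per the deposited format, 2.46 to 2.93 in the thresholded list. Depth is unknown, and no interval or floor was computed.

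The 4 ce11 lists were used, and the ce10 lists were not. Gene starts were taken from Ensembl release 115 (WBcel235) and sequence from the RefSeq copy of that assembly, with Python 3.11.15 and numpy 2.4.6. A summit belonged to each gene whose window held it, and summits within 100 bp were matched between lists. Coordinates are 1-based. The highest region end on each chromosome lay within its WBcel235 length. Printed sequence windows hold no annotated UTR.

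The genes, classes, words and lists were chosen with earlier results of these data known. Each gene is accounted for by name, and values are given for those with a thresholded or pooled summit and for other pathway genes with a thresholded one, while further genes with values were picked after these were seen. No test was made: the series has 1 group, and counts stand beside those over all protein-coding genes. Window assignment was tested on simulated data.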

Additional observations from a re-analysis of the deposited data

How the results depend on the processing

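No paired analysis was possible because there is 1 group. Of 117 values under other settings, 95 were counts within 1.5 times the reported count or medians equal to the reported median at 3 digits. The 95 include counts of 0 that stayed 0 for the inhibitors, phosphatases and other cdc- genes, so the tally does not measure stability. The 22 others were as follows, the medians among them having moved by less than 1.5 times. With windows of 500 bp upstream to 100 bp downstream, no cyclin had a reproducible summit (0), the median pooled signal was 19.8 and the median distance -173 bp. With 250 bp upstream to 50 bp downstream, the cyclin count was 0, pooled summits were at 11 genes, and the medians were 21.6 and -144 bp. In that window 4 of the 76 other pathway genes remained, beside 1.25% of all protein-coding genes. With 2000 bp upstream the median pooled signal was 13.6, and orc-2 was added. With each summit given only to the nearest coding start, cyb-1 and cdc-6 were lost, which left 6 genes (10.3%, against 1.71% of all protein-coding genes), 0 cyclins and 3 other pathway genes. In the stronger 50% of the list only efl-1 and cdk-7 were left, 2 genes (3.45%, against 1.36%), with 1 kinase, 0 cyclins and 0 replication genes. Leaving out either replicate, with the strongest 537 regions of the other in place of the reproducible list, left 5 genes. By class this gave 0 to 1 cyclins, and 1 to 2 replication genes. Among the strongest 2000 regions, 11 genes had a summit in replicate 2 and 5 in both replicates. With 50 bp on each side of the summit, 1 of the 7 peaks held an E2F word. For pooled summits in other windows, the strongest 2000 regions and words within 50 bp, no share over all genes or regions was computed. The cause of these shifts was not tested, apart from the smaller windows and lists themselves. Unknown depth limits what can be said of genes without a summit.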

Other observations

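A search for 10-letter words over both strands of the 7 windows found a single word present in as many as 3 of them, AATGCGCAAA (reverse complement TTTGCGCATT). It lay in the peaks of cdk-5, pcn-1 and cdc-6. It was in 5 of all 537 reproducible peaks (0.931%), in 9 of the 8533 other pooled regions (0.105%) and in 20 of the 19973 promoter windows of the same length (0.100%). The other 2 reproducible peaks with the word were chrI:16881-17144, with a signal of 36.7 and no coding gene in range, and chrII:7945218-7945481, with 22.2, in the window of dbt-1. Over the whole promoter window it was present at 4 of the 58 genes, the fourth being plk-3, which had no summit in any list, and at 83 of all protein-coding genes, 6 of which had a reproducible summit. The word was found in these peaks and then counted in the same data, so the counts are a description only.

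Several other genes of the pathway list lay below the threshold, those of the highest pooled signal being given here after their values were seen. The kinase gene wee-1.3, which holds CDK-1 inactive, had a pooled signal of 20.9 at rank 540, with rank 3925 in replicate 1 and 488 in replicate 2. The spindle checkpoint genes mdf-2 and mdf-1 had pooled signals of 16.9 (rank 812) and 14.1 (rank 1155). The centriole kinase gene zyg-1 and the kinetochore gene knl-1 both had 15.9 (ranks 912 and 914), and gmn-1, for the replication inhibitor geminin, had 14.5 (rank 1084) at -984 bp from its start. Each of these but wee-1.3, mdf-1 and knl-1 shared its summit with another coding gene. The cyclin C gene cic-1 had a pooled signal of 13.7 (rank 1251), with rank 503 in replicate 2 and no summit within 100 bp in replicate 1. It shared that summit with strm-1.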
